A study of Homo sapiens with 6 samples.

Results

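The 10 genes described here encode the core of canonical Wnt signalling: β-catenin (CTNNB1), the destruction complex that removes it (APC, AXIN1, AXIN2, GSK3B and CSNK1A1), the TCF/LEF factors through which it acts (TCF7L2, LEF1 and TCF7) and the Wnt co-receptor LRP6. They were chosen by gene symbol and are 10 of the 58302 genes in the expression table. Their FPKM in every RIP and Input library and every ac4C peak annotated to them were taken from the deposited data. All 10 exceeded the minimum of 1 FPKM in the Input of both lines, as did 12324 genes in all, and these genes are the background below.

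The study sought RNAs bound and acetylated by NAT10, the enzyme that makes N4-acetylcytidine (ac4C) on RNA, in colorectal cancer cells. SW480 and DLD-1, epithelial lines from colorectal tumours, were labelled wild type, received no treatment and were grown in the same medium. Each line gave 1 Input library of total RNA, 1 RIP library of RNA immunoprecipitated with a NAT10 antibody and 1 acRIP library immunoprecipitated with an ac4C antibody. The 6 groups thus held 1 library each and no replicates, so every difference is between libraries, and no p-value was computed from expression.

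In cells without a Wnt signal, the scaffolds APC, AXIN1 and AXIN2 hold β-catenin for phosphorylation by casein kinase 1α (CSNK1A1) and GSK3β (GSK3B), after which it is degraded. When Wnt ligands engage Frizzled and LRP6, AXIN is drawn to the membrane, β-catenin accumulates, and in the nucleus it binds TCF/LEF factors at target genes. In the colon this pathway maintains the stem cells of the crypt, and loss of APC is the usual early event of colorectal tumours.

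The RIP and Input libraries did not pair by their labels. On a log2 scale (1 FPKM added) and across 16278 protein-coding genes, r was 0.945 between SW480 RIP and DLD-1 Input and 0.872 between SW480 RIP and SW480 Input. For DLD-1 RIP it was 0.951 with SW480 Input and 0.857 with DLD-1 Input, where each line name stands for a label. These values are descriptions across genes, which are not independent. The Input of each line is listed again in a second table that accompanies the acRIP data, and there the labels matched those of the first table (r = 0.962 and 0.957 for the same label, 0.861 and 0.851 for the other). The labels give 1 Input per line and the sources do not say whether both tables come from the same library, so the second table may not be an independent check. The cause of the crossed resemblance was not tested, and each RIP value is therefore given over the Input of the same label and over that of the other label. Of 8 markers of colon epithelium, 7 or 8 reached 1 FPKM in every library, with a summed level of 915 to 3380 FPKM. None of 8 markers of fibroblasts, leukocytes and endothelium did so, their sum was 0.0606 to 0.995 FPKM, and 3 to 6 of them were at 0. The reads that could be solved from the FPKM steps came to at least 25861853 in SW480 RIP, 21346860 in DLD-1 RIP, 11634214 in SW480 Input and 10981655 in DLD-1 Input.

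CTNNB1 was the most abundant of the 10 transcripts in both RIP libraries. It stood at 113 FPKM in SW480 RIP and 86.3 in DLD-1 RIP, with 51.4 FPKM in SW480 Input and 61.2 in DLD-1 Input. Both RIP values thus lay above both Input values. The log2 ratio of RIP to Input, with 1 FPKM added to each value, was 1.12 ± 0.030 (counting SE) in SW480 and 0.49 ± 0.030 in DLD-1. Errors of this kind come from the solved reads and cover counting error only, not the variation between cultures. Against the other label's Input the ratio was 0.87 for SW480 RIP and 0.73 for DLD-1 RIP. Over the second table's Inputs, scaled to the first, it was 1.31 and 0.95 with the same label and 1.33 and 0.92 with the other. CTNNB1 therefore lay above Input in all 8 pairings, which reuse the same RIP libraries. It was at the 87.0th and 70.4th percentiles of tested genes over the same label and at the 87.9th and 83.7th over the other.

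**Figure D1:**
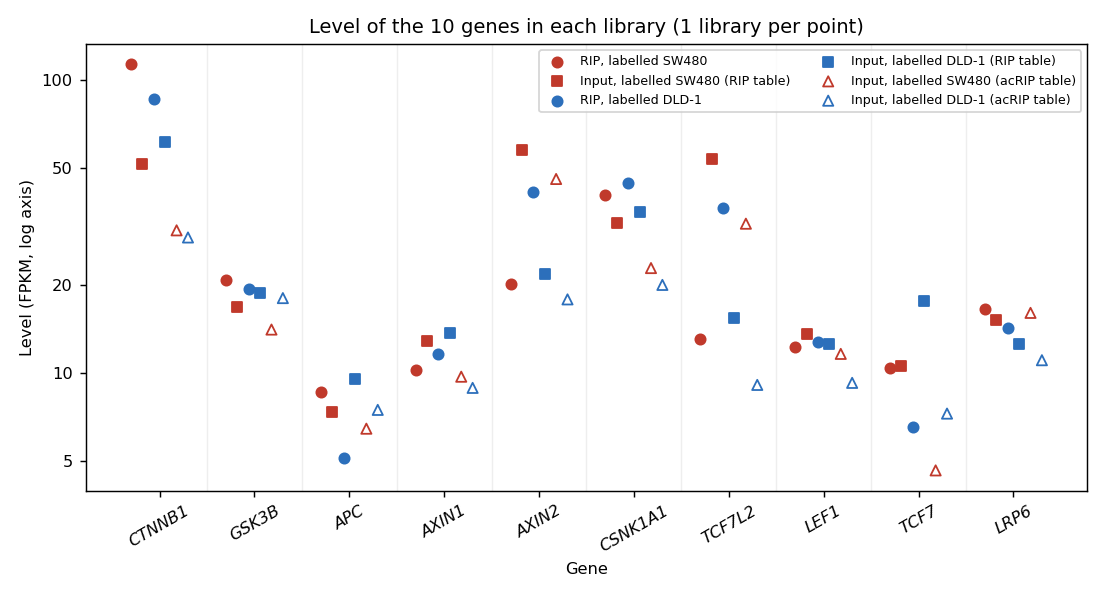
Level of each of the 10 genes in the 4 libraries of the RIP table (filled circles, RIP; filled squares, Input) and in the 2 Inputs of the acRIP table (open triangles), in FPKM on a log axis, with 1 library per point and no error bars. CTNNB1 is highest in both RIP libraries, and AXIN2 and TCF7L2 show the widest spread, from 20.2 to 57.7 and from 13.0 to 53.7 FPKM in the RIP table.

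The 5 genes of the destruction complex covered a range of levels. CSNK1A1, which primes β-catenin for GSK3β, was measured at 40.5 FPKM in RIP and 32.6 in Input labelled SW480, and at 44.6 and 35.4 FPKM in those labelled DLD-1. Both RIP values again exceeded both Inputs. Its log2 ratio was 0.31 ± 0.031 in SW480 and 0.32 ± 0.031 in DLD-1, and 0.19 and 0.44 over the other label.

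GSK3B, the kinase that marks β-catenin for degradation, stood at 20.8 FPKM in RIP and 16.8 in Input labelled SW480, and at 19.3 and 18.8 FPKM in those labelled DLD-1. The ratio was 0.29 ± 0.037 in SW480, whereas in DLD-1 it was 0.038 ± 0.038, within counting error of 0. Over the other label both values were small and positive, 0.14 and 0.19. With the second table's Inputs it was 0.0074 in SW480 and -0.49 in DLD-1 for the same label, and -0.39 and -0.094 for the other, so its direction depended on the table.

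AXIN1, the scaffold that limits assembly of the complex, was at 10.2 FPKM in RIP and 12.9 in Input labelled SW480, and at 11.7 and 13.7 FPKM in those labelled DLD-1. Both RIP values were below both Inputs. The log2 ratio was -0.30 ± 0.049 and -0.22 ± 0.050 over the same label and -0.39 and -0.13 over the other, and it was below 0 with the second table's Inputs as well.

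APC, the scaffold most often lost in colorectal tumours, had the lowest levels of the 10 in RIP. It was at 8.62 FPKM in RIP and 7.38 in Input labelled SW480, and at 5.12 and 9.53 FPKM in those labelled DLD-1. SW480 RIP lay between the Inputs, and DLD-1 RIP lay below both. The log2 ratio was 0.20 ± 0.045 in SW480 and -0.78 ± 0.048 in DLD-1, but -0.13 and -0.45 over the other label. With the second table's Inputs it was -0.13 and -1.02 for the same label, so that the SW480 value turned, and -0.37 and -0.78 for the other.

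AXIN2, a scaffold that is also a transcriptional target of β-catenin and so part of a negative feedback, was at 20.2 FPKM in RIP against 57.7 in Input for SW480, and at 41.4 against 21.8 FPKM for DLD-1. RIP was low where Input was high, and high where Input was low. The log2 ratio was -1.47 ± 0.036 in SW480 and 0.90 ± 0.044 in DLD-1. Over the other label it was -0.11 ± 0.048 and -0.47 ± 0.032, below Input in both. The second table's Inputs gave -1.69 in SW480 and 0.59 in DLD-1 for the same label, and -0.41 and -0.69 for the other.

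TCF7L2, the main TCF factor of the intestinal epithelium, followed the same course with a wider gap. It was at 13.0 FPKM in RIP against 53.7 in Input for SW480, and at 36.6 against 15.4 FPKM for DLD-1. With the labels as given, its log2 ratio of -1.97 ± 0.042 in SW480 was the lowest of the 10 genes, and that of 1.20 ± 0.052 in DLD-1 was the highest. Against the other label's Input the values were -0.23 ± 0.057 and -0.54 ± 0.034. The second table's Inputs gave -1.79 in SW480 and 1.34 in DLD-1 for the same label, and -0.089 and -0.37 for the other.

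TCF7, which encodes TCF1, was at 10.4 FPKM in RIP and 10.6 in Input labelled SW480, and at 6.53 and 17.6 FPKM in those labelled DLD-1. Neither RIP value exceeded either of these Inputs. The log2 ratio was -0.018 ± 0.056 in SW480, within counting error of 0, and -1.30 ± 0.057 in DLD-1, and over the other label it was -0.70 and -0.62. With the second table's Inputs TCF7 turned to 0.54 in SW480 and stood at -0.68 in DLD-1, short of 2-fold, and with the other label there it was -0.082 and -0.060. LEF1, a factor with the same DNA-binding domain, was nearly level at 12.3 and 12.7 FPKM in the RIP libraries and 13.6 and 12.5 FPKM in the Inputs labelled SW480 and DLD-1. Its log2 ratio of -0.13 ± 0.063 in SW480 lay just outside counting error, and that of 0.018 ± 0.068 in DLD-1 lay within it, as did -0.027 and -0.085 over the other label. With the second table's Inputs LEF1 was lower in RIP throughout. The ratio there was -0.44 in SW480 and -0.14 in DLD-1 for the same label, and -0.19 and -0.40 for the other.

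TCF/LEF factors bind DNA at a short motif, and TCF7L2 and TCF7 are themselves among the genes whose levels differed between the libraries, so the promoters of the 10 genes were searched on both strands for the motif CTTTGAA and for its variants that end in AT, in TA or in TT. RefSeq windows of 300 bases around the start site (GRCh38.p14) were at hand for 8 of the 10 genes, in 13 windows, and not for AXIN2 and LRP6. Each of 2 windows held 1 match, and 13.8% of all 35116 windows held at least 1 of the 4 motifs. The matches are shown with the motif, or its complement, in capitals, the first at chr5:134123557-134123586, 50 bases before a TCF7 start and on the strand opposite to the gene, and the second at chr10:113126489-113126518, 133 bases before a TCF7L2 start and on the strand of the gene.
TCF7: ggccccactggAACAAAGgaggagagaggc
TCF7L2: aaaatatcaggCTTTGTTcttttgattgaa
A match describes the letters of the window and no binding was measured here. CTTTGTT, the motif in both, was in 5.20% of all windows. Both windows lie at starts inside the gene, which begins at chr5:134108218 for TCF7 and at chr10:112950247 for TCF7L2.

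LRP6, the co-receptor, was at 16.5 FPKM in RIP and 15.1 in Input labelled SW480, and at 14.3 and 12.5 FPKM in those labelled DLD-1. The RIP libraries were slightly higher with the labels as given, by a log2 ratio of 0.12 ± 0.035 and 0.18 ± 0.039. Over the other label the values were 0.37 and -0.075. LRP6 was the only one of the 10 genes whose sign differed between the lines in that pairing. With the second table's Inputs its direction turned, to -0.49 in SW480 and -0.23 in DLD-1 with the same label and to -0.027 and -0.68 with the other.

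**Figure D2:**
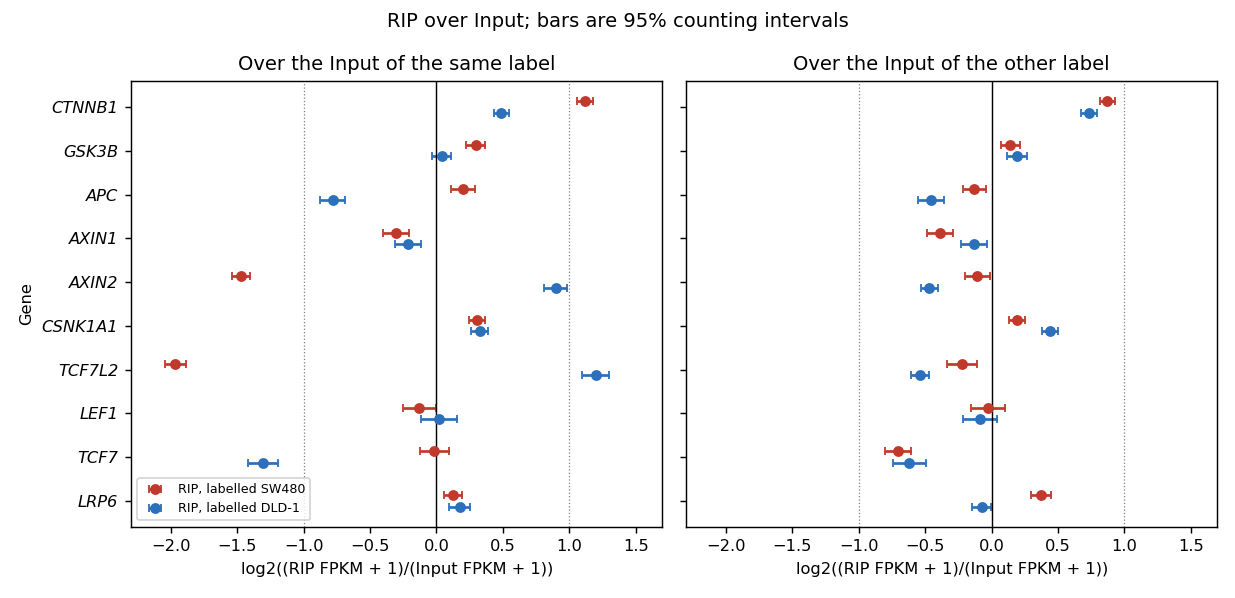
Log2 ratio of RIP to Input for each gene, with 1 FPKM added to both values, over the Input of the same label (left) and of the other label (right). Points are single libraries (red, RIP labelled SW480; blue, RIP labelled DLD-1), bars are 95% counting intervals and dotted lines mark 2-fold. The 2 RIP libraries lie on opposite sides of 0 for AXIN2 and TCF7L2 on the left and on the same side on the right.

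As a group, the 10 genes passed 2-fold in RIP about as often as all tested genes when the labels were taken as given. In SW480, 1 of 10 was at least 2-fold above Input (CTNNB1; 15.6% of all tested genes) and 2 were at least 2-fold below (AXIN2 and TCF7L2; 16%). In DLD-1, 1 was above (TCF7L2; 15.1%) and 1 below (TCF7; 19.2%). Over the other label none of the 10 passed 2-fold in either RIP library, where 9.24% of all genes were above and 11.7% below for SW480 and 9.36% and 11.8% for DLD-1. With the second table's Inputs of the same label, 1 was above and 2 below in SW480 (18.5% and 14.3% of all) and 1 above and 1 below in DLD-1 (17.5% and 17%). The gene below in DLD-1 was then APC, at -1.02, and no longer TCF7. With those of the other label, CTNNB1 alone was above in SW480 and none below (11.8% and 10.2%), and none passed in DLD-1 (12.2% and 10.2%). The median log2 ratio of the 10 was 0.053 in SW480 and 0.11 in DLD-1, beside 0.054 and -0.054 for all tested genes. With the other label it was -0.067 and -0.11, beside 0.017 and -0.0041 for all.

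The signs of the ratios depended on the pairing. With the labels as given, 4 of 10 genes (APC, AXIN2, TCF7L2 and LEF1) had opposite signs in the lines, as did 43.6% of all genes. The DLD-1 value of LEF1 lay within counting error. With the other label it was 1 of 10 (LRP6), and 18.3% of all. With the second table's Inputs it was 4 of 10 for the same label (GSK3B, AXIN2, TCF7L2 and TCF7; 44.9% of all) and 0 of 10 for the other (22.7%). CTNNB1, GSK3B, CSNK1A1 and LRP6 were above Input in both lines under the same label (28.2% of all genes), and CTNNB1, GSK3B and CSNK1A1 under the other (41.2%). With the second table's Inputs only CTNNB1 and CSNK1A1 were above in both lines, 2 of 10 under either label. Of all genes, 30.6% were above with the same label and 42.5% with the other. These 2 genes were thus above Input under all 4 choices of Input. The choices reuse the same RIP libraries, and the share of all genes above under all 4 was not computed. Below Input in both lines were 2 of 10 genes under the same label and 6 under the other. For the second table's Inputs these counts were 4 and 8. The share of all genes below in both lines was not computed. Protein-coding genes as a whole had a median log2 ratio of 0.18 in SW480 and 0.065 in DLD-1. Relative to these medians CTNNB1 was at 0.94 and 0.42 and CSNK1A1 at 0.13 and 0.26, while LRP6 turned to -0.055 in SW480 and GSK3B and LEF1 to -0.027 and -0.047 in DLD-1.

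The Inputs alone gave the levels of the 10 genes under each label, with no RIP library involved. RIP and Input did not pair by label, and which line each Input came from was not tested. In bulk RNA, fewer cells expressing a gene and less RNA per cell cannot be told apart. AXIN2 and TCF7L2 differed most. The log2 ratio of SW480 Input to DLD-1 Input was 1.36 ± 0.046 for AXIN2 and 1.74 ± 0.052 for TCF7L2, and these were the only 2 of 10 genes at least 2-fold higher (7.25% of all), with none at least 2-fold lower (9.29%). In the second table's Inputs AXIN2 stood at 45.9 against 17.8 FPKM and TCF7L2 at 32.3 against 9.11, log2 ratios of 1.32 and 1.72. The same 2 genes, and no other of the 10, passed 2-fold there, where 9.52% of all genes were higher and 9.6% lower. TCF7 was lower in the Input labelled SW480 in both tables, by a log2 ratio of -0.68 and -0.55. For the other 7 genes the ratio lay between -0.34 and 0.50 across both tables. The sign was the same in both tables in 7 of 10 genes (82% of all), the exceptions being CTNNB1, AXIN1 and CSNK1A1.

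The RIP libraries, compared with each other, reversed this order. AXIN2 and TCF7L2 were lower in SW480 RIP than in DLD-1 RIP, with log2 ratios of -1.003 ± 0.034 and -1.42 ± 0.041. They were the only 2 of 10 genes at least 2-fold lower (6.17% of all), and none was at least 2-fold higher (7.6%). TCF7 and APC were higher in SW480 RIP, with log2 ratios of 0.60 ± 0.053 and 0.65 ± 0.041. In 7 of 10 genes (CTNNB1, GSK3B, APC, AXIN2, TCF7L2, LEF1 and TCF7) the difference between lines had opposite signs in RIP and in Input, as in 74% of all genes.

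**Figure D3:**
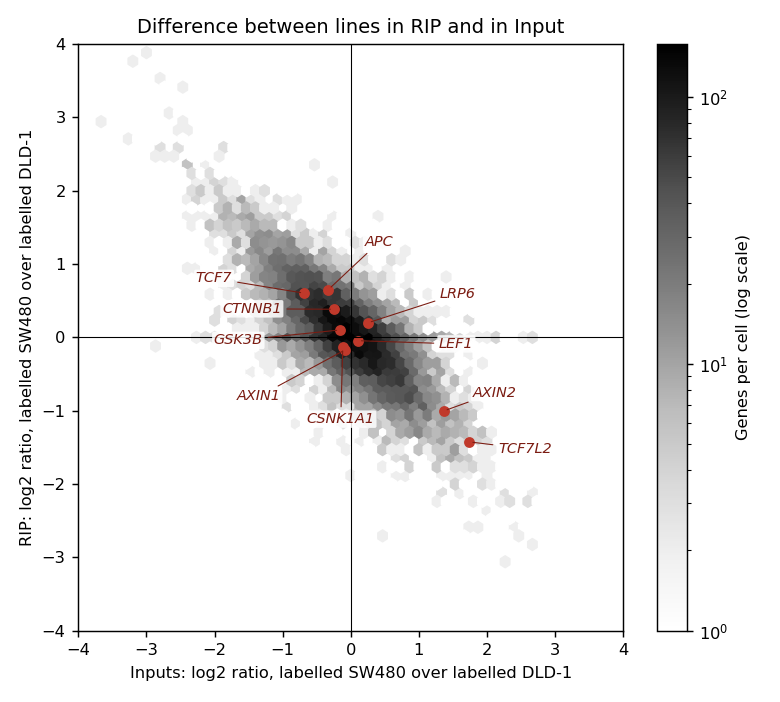
Log2 ratio of the library labelled SW480 to that labelled DLD-1 in the Inputs (x axis) and in the RIP libraries (y axis) for the 12324 tested genes, as the number of genes per cell in grey on a log scale, with the 10 genes in red. AXIN2 and TCF7L2 lie at the lower right, above 1 in Input and at or below -1 in RIP.

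Of sequences closely related to CSNK1A1, with which it could share reads, the pseudogene CSNK1A1P1 was listed at no more than 0.207 FPKM and CSNK1A1L at no more than 0.0982 in any library. TCF7L1, the remaining TCF factor, was at 1.29 FPKM in SW480 Input and 11.5 in DLD-1 Input, the reverse of TCF7L2. It was at 6.30 FPKM in SW480 RIP and 1.47 in DLD-1 RIP, so that it too was high in the RIP library whose label was low in Input.

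The acRIP data are lists of peaks, called in each line and on the pooled libraries. The depth of the acRIP libraries is unknown, and the folds below are those of the peak caller for acRIP over Input. In SW480, 4 of 10 genes carried a peak (44.2% of all tested genes), and in DLD-1 6 of 10 did (48.8%). In the pooled list it was 7 of 10 (55.2%). CTNNB1, GSK3B and CSNK1A1 carried peaks in both lines, 3 of 10 beside 34.4% of all genes. AXIN1 had a peak in SW480 but not in DLD-1, and APC, TCF7L2 and TCF7 in DLD-1 but not in SW480. AXIN2, LEF1 and LRP6 had none in any list.

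CTNNB1 carried the peak of highest fold among the 10 genes in all 3 lists, at the end of its 3'-UTR. In SW480 this peak spanned chr3:41240180-41258357 (GRCh38, plus strand) in 2 blocks of 274 and 26 bases, with a fold of 157 and a caller's p of 5e-97. It lay at the 92.7th percentile of folds in that list. The second block, at chr3:41258332-41258357, ended 17914 bases beyond the 3' end of the gene in RefSeq. In DLD-1 the peak at chr3:41240210-41240449 had a fold of 105, a p of 1.3e-32 and the 94.8th percentile, and in the pooled list the fold was 104. The bulk of this peak was thus in the same place in both lines, with 240 bases in common. It did not have the lowest caller's p in DLD-1. There a coding peak of CSNK1A1 had 2.5e-55 (fold 6.63) and a coding peak of CTNNB1 itself had 3.2e-42 (fold 11.4).

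A second 3'-UTR peak of CTNNB1 was also called in both lines, at chr3:41239671-41239880 with a fold of 7.42 in SW480 and at chr3:41239791-41240030 with a fold of 27.5 in DLD-1. These overlapped by 90 bases. By line, the other CTNNB1 peaks were called in DLD-1 and not in SW480. A weak one lay further upstream in the 3'-UTR (chr3:41239312-41239432, fold 2.13), and 3 lay in the coding sequence. The coding peaks were at chr3:41224480-41224750, chr3:41225129-41227227 (in 4 blocks) and chr3:41233538-41233718, with folds of 10.8, 11.4 and 13.6. The first held the only site in a CTNNB1 peak of the DLD-1 list of the 12-base pattern with 4 evenly spaced Cs that was searched for as an ac4C motif. With 6 peaks in DLD-1, CTNNB1 was among 162 of 6015 genes with a peak (2.69%) that had as many or more. In SW480 it had 2, and 35.1% of genes with a peak there had as many or more. These shares are over genes of any Input level and length.

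**Figure D4:**
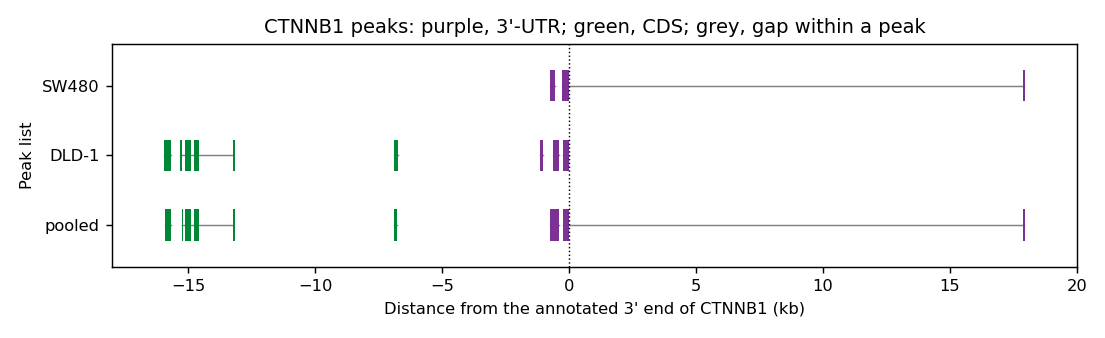
Position of the CTNNB1 peaks in the SW480, DLD-1 and pooled lists, as the distance in kb from the annotated 3' end of the gene (dotted line), with bars for blocks (purple, 3'-UTR; green, coding sequence) and grey lines for gaps within a peak. All 3 lists have 3'-UTR peaks at the gene's end, and the coding peaks are in the DLD-1 and pooled lists.

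GSK3B carried a coding peak in the same place in both lines, with 240 bases in common. It spanned chr3:119826780-119843418 (minus strand) with a fold of 15.4 in SW480 and chr3:119826780-119843448 with a fold of 9.75 in DLD-1. The lists gave it 4 motif sites, of which 2 lay inside its blocks and 2 in the gap between them. A further coding peak of 3 blocks (chr3:119876445-119912752, fold 12.6) was called in DLD-1 and not in SW480, and again in the pooled list with a fold of 4.43.

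CSNK1A1 carried 2 peaks in its 3'-UTR in both lines. That at chr5:149494320-149494589 (minus strand) had a fold of 17.7 in SW480, and the shorter one within it at chr5:149494439-149494589 had a fold of 2.82 in DLD-1. The other started at chr5:149496054 in both, with folds of 8.85 and 12.2. Both overlap peaks that are also listed under AC021078.1, a transcript on the same strand that was at 0.589 to 2.28 FPKM, so the peaks cannot be assigned to CSNK1A1 alone. DLD-1 added a coding peak of 6 blocks (chr5:149505553-149517876, fold 6.63) and a peak in the 5'-UTR (chr5:149551193-149551343, fold 2.87) with 2 motif sites.

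The remaining peaks were single and moderate. AXIN1 had a peak in SW480 at chr16:287650-287829 (minus strand), 210 bases from the 3' end of the gene and annotated to an exon, with a fold of 13.9 and 1 motif site. No DLD-1 peak overlapped it. In DLD-1, APC had a coding peak at chr5:112842253-112842432 (plus strand, fold 7.87, 2 sites) whose false discovery rate of 0.049 was just under the threshold of 0.05. TCF7L2 had a 3'-UTR peak at chr10:113166870-113167019 (plus strand, fold 10.2), 659 bases before its end and without a site. TCF7 had an exonic peak at chr5:134146709-134146889 (plus strand, fold 11) with 2 sites. In the pooled list the APC peak was elsewhere (chr5:112844710-112844860, in the 3'-UTR, fold 6.34) and that of AXIN1 too (chr16:288189-289441, fold 3.17). These were the only 2 of the 14 pooled peaks with a false discovery rate not under 0.05, at 1 and 0.0933. The pooled TCF7L2 peak also lay elsewhere, at chr10:113167289-113167439 (fold 9.06), and held 1 site.

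**Figure D5:**
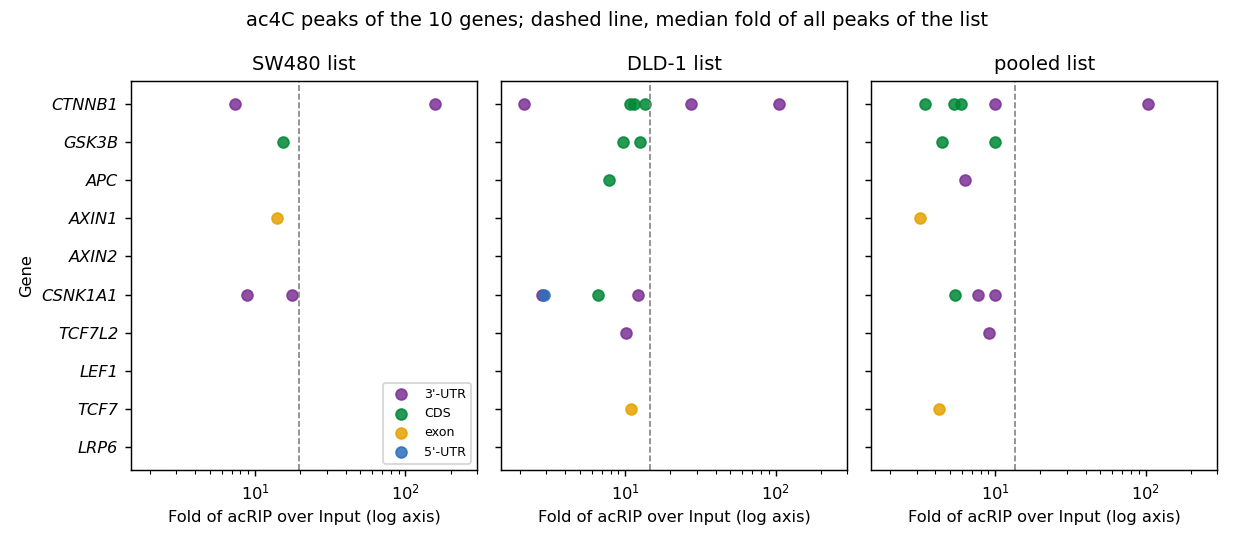
Fold of acRIP over Input (log axis) of each peak of the 10 genes in the SW480, DLD-1 and pooled lists, coloured by its position in the transcript, with the median fold of all peaks of each list as a dashed line. Apart from CTNNB1, every peak lies left of the median of its list.

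Against all peaks of the same list, those of the 10 genes were mostly of low fold. The median fold was 14.65 for the 6 SW480 peaks and 10.8 for the 15 DLD-1 peaks, beside 19.5 and 14.6 for all peaks. Only 1 of 6 and 2 of 15 reached the median of their list, and all of these were 3'-UTR peaks of CTNNB1. In the pooled list the medians were 6.13 and 13.6, and 1 of 14 peaks reached the latter, again of CTNNB1. The caller's p-values ranked them otherwise. A p under the median of the list was found for 5 of 6 SW480, 10 of 15 DLD-1 and 9 of 14 pooled peaks. By position, 4 of 6 SW480 peaks lay in 3'-UTRs (53.0% of all) and 1 in coding sequence (24.3%), and in DLD-1 6 of 15 (41.5%) and 7 of 15 (38.4%).

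Motif sites were listed in 2 of 6 peaks in SW480 (GSK3B and AXIN1; 33.3%, exact 95% binomial interval 4.33 to 77.7, against 56.2% of all peaks). In DLD-1 they were listed in 5 of 15 (33.3%, 11.8 to 61.6, against 55.1%). The peaks are few and several lie on the same gene. The intervals, here and for shared peaks below, treat peaks as independent and cover counting error only. A difference from the share of all peaks was not tested. None of the CTNNB1 3'-UTR peaks had a site in any list.

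Of the 6 SW480 peaks on these genes, 5 were overlapped by a DLD-1 peak (83.3%, exact interval 35.9 to 99.6), beside 54.9% of all SW480 peaks. Of the 15 DLD-1 peaks 5 were overlapped by a SW480 peak (33.3%, 11.8 to 61.6), beside 36.3% of all. The shared peaks belonged to CTNNB1, GSK3B and CSNK1A1, and the unshared SW480 peak to AXIN1.

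Whether a gene carried a peak went with its Input level across the table, and the 10 genes can be read against genes of like level. In SW480, 73.4% of the 1171 protein-coding genes with 20 to 50 FPKM in the acRIP table's Input had a peak, and of CSNK1A1, TCF7L2, CTNNB1 and AXIN2, which lie in that range, CSNK1A1 and CTNNB1 did. Of LRP6, GSK3B and LEF1, at 10 to 20 FPKM, only GSK3B did, where 62.2% of genes had a peak. In DLD-1, GSK3B and CSNK1A1 had peaks at that level and LRP6 and AXIN2 had none (69.5%). APC, TCF7 and TCF7L2 had peaks at 5 to 10 FPKM, where AXIN1 and LEF1 had none (58.6%). By label, AXIN2 thus lacked a listed peak at 45.9 FPKM in SW480, and TCF7L2 at 32.3 FPKM, levels above that of CTNNB1 at 30.7 FPKM. In the Input labelled DLD-1, AXIN2 was at 17.8, TCF7L2 at 9.11 and CTNNB1 at 29.0 FPKM. Peak lists and Inputs were matched by label, and this match was not tested.

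The other genes of the pathway were taken from a list of 89 ligands, receptors, inhibitors, relay and nuclear genes, of which 52 passed the Input minimum. In SW480, 8 of 52 were at least 2-fold above Input and 5 below (15.6% and 16% of all tested genes), and in DLD-1 3 were above and 8 below (15.1% and 19.2%), with a median log2 ratio of -0.26 and 0.018. None passed 2-fold in the same direction in both lines. Over the other label 0 of 52 passed in SW480 (9.24% of all above and 11.7% below), and 1 was above and 2 below in DLD-1 (9.36% and 11.8%), with medians of -0.092 and -0.21. Signs were opposite between lines in 26 of 52 with the labels as given (43.6% of all) and in 8 of 52 with the other label (18.3%). Peaks were listed on 23 of the 52 in SW480, on 30 in DLD-1 and on 17 in both, beside 44.2%, 48.8% and 34.4% of all tested genes.

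Of these 17 genes, the 5 whose smaller top fold of the lines was highest are given, whether or not their top peaks coincide. The top peak of WNT7B, a ligand, had a fold of 231 in SW480 and of 200 in DLD-1. PPP2R1A, a scaffold of the phosphatase PP2A, had 253 and 74.4. TLE2 and AES, from the nuclear genes of the list, had 286 and 74.7 and 310 and 55.8, respectively. FZD2, a Wnt receptor, had 134 and 53.5. The top folds of CTNNB1 were 157 and 105. These folds were over unlike levels in the second table's Inputs labelled SW480 and DLD-1. There WNT7B was at 2.70 and 0.458 FPKM, TLE2 at 0.967 and 0.481 and FZD2 at 2.49 and 3.02. PPP2R1A was at 19.1 and 20.3 FPKM, AES at 27.4 and 32.3 and CTNNB1 at 30.7 and 29.0.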

How the data were processed

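The authors deposited FPKM values (fragment counts divided by transcript length and library size) for 4 libraries, RIP and Input of each line, and a second table of values for the Inputs that accompanies the acRIP data, whose unit is not named and which was read as FPKM. They also deposited 3 peak lists, each with a fold of acRIP over Input (a ratio), a p-value, and scores that hold this p-value and the false discovery rate on a log10 scale. The authors' own ratio columns of IP to Input were not used. Per the submitters' processing notes the tools were cutadapt 2.5 and HISAT2 2.1.0, and the builds named were GRCh38, GRCm38 and hg38. The counting tool, the peak caller and the use of strand are not given in the sources used here.

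From these values log2((RIP + 1)/(Input + 1)) was computed, which understates the change of low genes, over genes whose Input reached 1 FPKM in each line. A difference was called at 2-fold or more. Relative depths were solved from the most frequent ratios between columns, which gave the smallest whole reads for 23446 of 23515 genes and from them a counting error, an upper limit if the true reads are larger. This was tested on simulated data. Genes of the second table were scaled to the first by the median quotient (1.47 and 1.53). Peaks overlapped at 1 base or more on the same strand, block by block. Listed peak starts were counted from 0 (29 starts fell 1 base before a RefSeq gene start and 5 on it), and starts printed are counted from 1. RefSeq positions are of GRCh38.p14. Python 3.11.15, pandas 2.3.3 and scipy 1.17.1 were used.

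With 1 library per group no test was made. All 10 genes are named, and of the other pathway genes those past 2-fold in the same direction in both lines (none) and the 5 with the highest smaller-of-both-lines peak fold. The members and lists were chosen with earlier results of these data known.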

Additional observations from a re-analysis of the deposited data

Results flagged for a closer look

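With the labels as given, 4 of the 10 genes had RIP over Input of opposite sign in the lines. The log2 ratio labelled SW480 minus that labelled DLD-1 was 0.98 for APC, -2.37 for AXIN2, -3.16 for TCF7L2 and -0.15 for LEF1. The difference was not tested, because each line had 1 library of each kind. Opposite signs were found in 43.6% of all tested genes. Against the other label's Input these 4 genes were below Input in both lines, and 6 of the 10 genes were. Of all tested genes, 41.2% were above Input in both lines there and 18.3% had opposite signs. For LEF1 the ratios over the other label lay within counting error, as did its DLD-1 ratio with the labels as given.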

How the results depend on the processing

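No paired analysis was possible because each group held 1 library. No replicate could be left out, and no own motif search of the peaks was run, since no genome was used here. In SW480 the median log2 RIP/Input ratio of the 10 genes was 0.053, and it became -0.12 after centring, -0.067 with the Input of the other label, -0.28 with the second table's Input and -0.14 with that of the other label. The 3 genes past 2-fold became 2 after centring, where CTNNB1 fell to 0.94. Their number became 0 with the other label and 1 with the second table's other label. In DLD-1 the median of 0.11 became -0.11, -0.17 and -0.32 with these 3 Inputs, and the 2 genes past 2-fold became 1 with a pseudocount of 5, 0 with the other label and 0 with the second table's other label. TCF7L2 in DLD-1 turned from 1.20 to -0.54 and -0.37 with the 2 Inputs of the other label. For the other pathway genes in SW480 the 13 past 2-fold became 6 with a pseudocount of 5, 21 without a filter, 0 with the other label and 2 with the second table's other label, and their median of -0.26 became 0 without a filter, -0.44 after centring, -0.092 with the other label, and 0.029 and -0.029 with the second table's Inputs of the same and the other label. In DLD-1 the 11 past 2-fold became 5 with a pseudocount of 5, 20 without a filter, 3 with the other label and 4 with the second table's other label, and the median of 0.018 became -0.21 with the other label. The median of the Input comparison turned from -0.10 to 0.15 with the second table, and the 2 genes past 2-fold between RIP libraries became 1 with a pseudocount of 5. With peaks of at least the median fold only, the 6, 15 and 14 peaks of the SW480, DLD-1 and pooled lists became 1, 2 and 1, and peaks with a motif site became 0 in SW480 and 0 in DLD-1. With p-values under the median of the list, the 14 pooled peaks became 9. Counting motif sites inside the blocks only, chosen after seeing the data, left the number of peaks with a site at 2 and 5. The cause of these shifts was not tested beyond what each setting removes by its construction.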
